A study of Homo sapiens with 12 samples.

Results

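The core glycolysis enzymes examined here are the products of 10 genes, HK1, HK2, GPI, PFKP, ALDOA, GAPDH, PGK1, ENO1, PKM and LDHA, taken by their symbols from tables of 58721 genes. All 10 were found in the count and the TPM tables, and all 10 passed the filter on low counts in every comparison. The values come from RNA-seq of 12 libraries of 2 human pancreatic ductal adenocarcinoma (PDA) lines, Pa-Tu-8902 and MIA PaCa-2, each carrying a doxycycline (dox)-inducible short hairpin RNA against GOT1. GOT1 is the cytosolic aspartate aminotransferase, a part of the malate-aspartate shuttle, and the comparison asks how transcription changes once the hairpin is induced. The 4 groups, each of 3 libraries, were Pa-Tu-8902 without dox, Pa-Tu-8902 with dox for 5 days, MIA PaCa-2 without dox and MIA PaCa-2 with dox for 5 days. Every library, untreated ones included, carries the hairpin, and no dox-treated library with another hairpin is among the 12, so the fall of GOT1 and other effects of dox cannot be told apart. Neither the labels nor the methods say which hairpin was sequenced, and the dose of dox is written in different units in the 2 places and is left out. Nothing says that the 3 libraries of a group came from separate cultures, so the p-values measure the spread between these libraries, which may be technical.

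Glycolysis splits glucose into pyruvate in the cytosol. Hexokinase, glucose-6-phosphate isomerase, phosphofructokinase and aldolase spend ATP to turn glucose into triose phosphates. Glyceraldehyde-3-phosphate dehydrogenase, phosphoglycerate kinase, enolase and pyruvate kinase then recover ATP and NADH, and lactate dehydrogenase turns pyruvate into lactate, which regenerates the NAD+ that glyceraldehyde-3-phosphate dehydrogenase needs. PDA cells are known for high glucose uptake, and several of these genes are known targets of the transcription factors HIF1 and MYC.

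GOT1 mRNA was at 78.3, 81.5 and 83.4 TPM in the untreated Pa-Tu-8902 libraries and at 4.51, 3.29 and 3.68 TPM with dox. In MIA PaCa-2 it was at 44.1, 38.9 and 42.7 TPM untreated and at 1.68, 1.95 and 1.87 TPM with dox, so every dox library was far below every untreated one of its line. TPM is a unit scaled to library size and corrected for transcript length, and was made by the authors. Total expected counts ran from 26226537 to 43406137 per library. Of the markers examined, the epithelial EPCAM was at 543 to 553 TPM in untreated and 645 to 698 TPM in dox-treated Pa-Tu-8902 and at 0.080 to 0.36 TPM in MIA PaCa-2, in which the mesenchymal VIM was at 3531 to 4218 TPM. Not every marker followed them. The epithelial KRT8 was at 3609 to 4078 TPM in untreated and 2747 to 3186 TPM in dox-treated Pa-Tu-8902 and still at 1382 to 1667 TPM in MIA PaCa-2, and the mesenchymal CDH2 did not exceed 1.16 TPM in Pa-Tu-8902 or 0.010 TPM in MIA PaCa-2. Pairs of replicates correlated at 0.997 to 0.998 (Pearson r across genes, of log2 counts scaled to library size), apart from the pairs of the second untreated MIA PaCa-2 library with the others of its group, at 0.995. The leukocyte markers PTPRC and CD3E and the acinar markers PRSS1, CPA1 and CELA3A stayed under 1 TPM in every library, and the macrophage marker CD68 was at 2.86 to 9.68 TPM. The summed level of 5 fibroblast markers was 3.82 to 6.38 TPM in untreated and 18.0 to 21.7 TPM in dox-treated Pa-Tu-8902, nearly all of it COL1A1, and 192 to 248 TPM against 340 to 398 TPM in MIA PaCa-2, nearly all of it COL1A2. DCN and LUM did not exceed 0.14 TPM anywhere. The part of these markers in the glycolysis values was not tested.

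The 10 mRNAs together made up 1.52% to 1.64% of all TPM in untreated Pa-Tu-8902 and 1.21% to 1.38% with dox. In MIA PaCa-2 they made up 1.38% to 1.56% untreated and 1.25% to 1.31% with dox. GAPDH alone gave 52.1% to 53.9% of this sum in untreated and 47.4% to 48.7% in dox-treated Pa-Tu-8902. In MIA PaCa-2 it gave 45.0% to 46.1% untreated and 40.6% with dox. In both lines, the summed share of each dox library was below that of every untreated library of its line.

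The levels spanned a wide range. In untreated Pa-Tu-8902, mean TPM ± SD (n = 3) was 8280 ± 507 for GAPDH, 2403 ± 65.4 for PKM, 2026 ± 81.0 for ENO1, 1199 ± 47.8 for LDHA and 1028 ± 81.7 for ALDOA. Lower levels were seen for PGK1 at 332 ± 15.5, GPI at 175 ± 5.04, PFKP at 143 ± 1.73, HK1 at 33.1 ± 0.774 and HK2 at 16.6 ± 1.18. No neighbours in this order overlapped among the 3 libraries. The hexokinases, which commit glucose to the cell, and the phosphofructokinase PFKP were thus the least abundant of the 10 mRNAs. The enzymes from aldolase onward were the most abundant, with PGK1 the lowest of them.

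The order in untreated MIA PaCa-2 differed in 1 place. ALDOA, at 1655 ± 85.3 TPM, stood above LDHA, at 990 ± 54.9 TPM, whereas in Pa-Tu-8902 LDHA stood above ALDOA, and the 3 libraries of these neighbours did not overlap in either line. PKM (2305 ± 116 TPM) and ENO1 (2250 ± 163 TPM) overlapped in untreated MIA PaCa-2. With dox, ENO1 stood at 2518 ± 102 TPM and PKM at 1900 ± 53.5 TPM in this line, with no overlap and in the opposite order. In Pa-Tu-8902 the order with dox was the one without it.

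**Figure D1:**
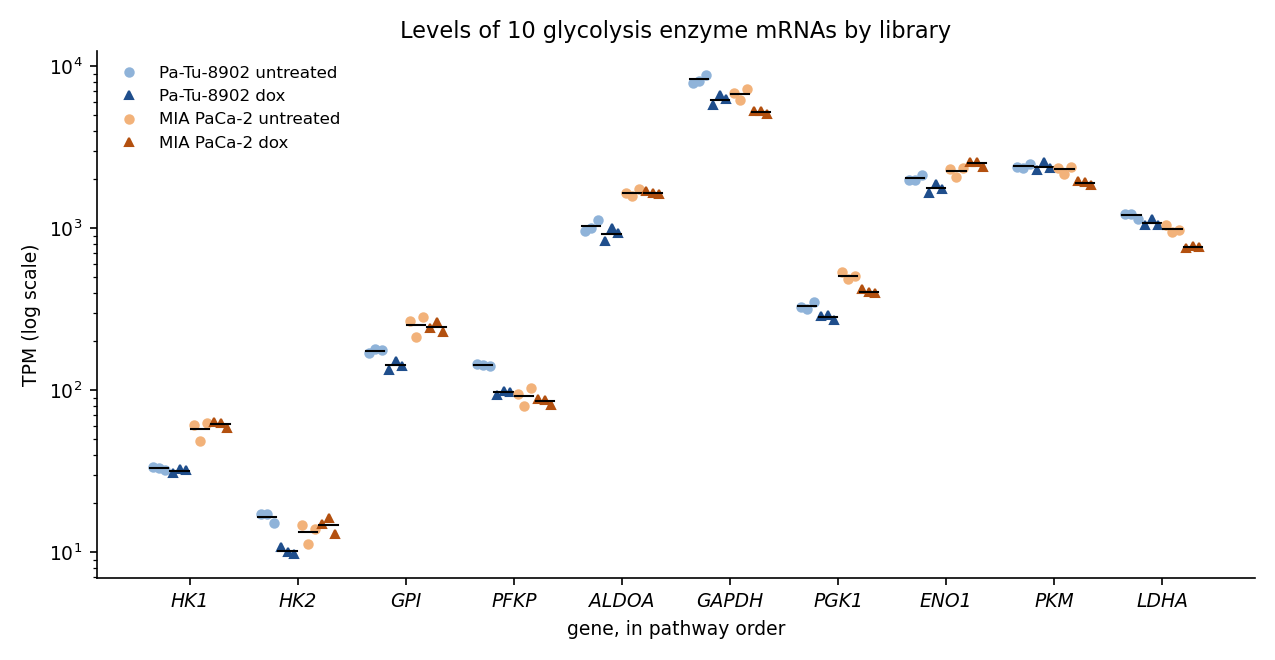
TPM of the 10 enzyme mRNAs in pathway order, on a log scale. Each point is 1 library (circles untreated, triangles dox) and each bar the mean of 3. GAPDH is the most abundant in every group, at 5053 TPM or more, and HK2 the least, at 17.3 TPM or less.

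In Pa-Tu-8902, dox lowered 6 of the 10 mRNAs, the hexokinase HK2, the isomerase GPI, the phosphofructokinase PFKP, GAPDH, the phosphoglycerate kinase PGK1 and LDHA. All 10 log2 fold changes were negative, with a median of -0.31 against 0.0014 over all 14949 genes tested. In MIA PaCa-2, dox lowered 4 of the 10, GAPDH, PGK1, the pyruvate kinase PKM and LDHA, and the median log2 fold change was -0.20 against -0.0089 over 14589 genes. No member rose in either line. The 3 members lowered in both lines were GAPDH, PGK1 and LDHA.

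These counts use edgeR's quasi-likelihood test with an adjusted p below 0.01. At that threshold 38.1% of all genes tested changed in either direction in Pa-Tu-8902 and 19.1% fell, and in MIA PaCa-2 27.2% changed and 14.7% fell. Over the 13095 genes tested in both lines, 7.08% fell in both. On another scale, limma on log2(TPM + 1), fewer of the passing genes were lower in Pa-Tu-8902, 1466 of 3684 against 2854 of 5692 with edgeR, and 521 of 971 called genes were lower in the MIA PaCa-2 line with log2(TPM + 0.1), against 1115 of 1751. With the study's added requirement of a fold change of at least 1.5, HK2 and PFKP remained called in Pa-Tu-8902, 2 of 10 members, against 16.3% of all genes in either direction and 7.12% lower. None of the 10 was called in MIA PaCa-2 with edgeR, against 12% of all genes in either direction and 7.64% lower. DESeq2 also called none there. By position in the pathway, 3 of the 5 enzymes from hexokinase to aldolase passed in Pa-Tu-8902 and 0 of 5 in MIA PaCa-2. Of the 4 enzymes from GAPDH to PKM, 2 passed in Pa-Tu-8902 and 3 passed in MIA PaCa-2. Passing in 1 line only does not show that the lines differ. PFKP just missed the threshold in MIA PaCa-2 (edgeR adjusted p = 0.0103). When the dox changes of the lines were compared (edgeR interaction), 2 of these 5 enzymes passed, HK2 and PFKP, and 0 of the 4. GPI did not pass there (0.23 on the log2 scale, adjusted p = 0.142).

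**Figure D2:**
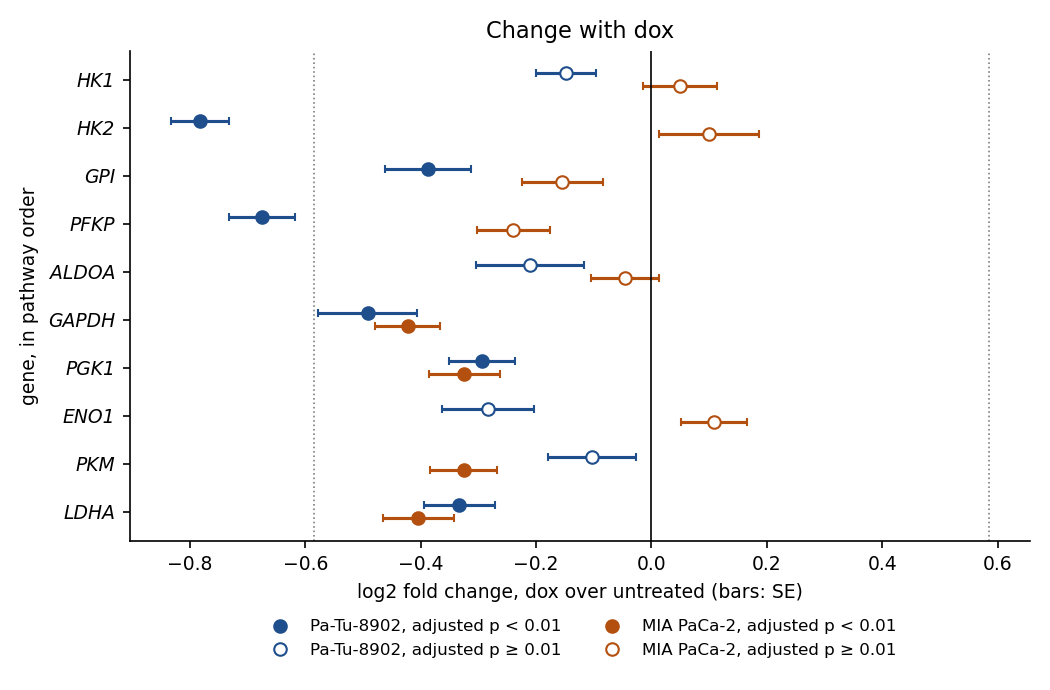
Log2 fold change of each enzyme mRNA with dox, with its standard error, in Pa-Tu-8902 (blue) and MIA PaCa-2 (orange). Filled points have an adjusted p below 0.01, and dotted lines mark a fold change of 1.5. Only HK2 and PFKP in Pa-Tu-8902 lie past a dotted line, and HK2 in MIA PaCa-2 lies to the right of 0 at 0.10.

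HK1 and HK2 phosphorylate glucose, HK1 being the widely expressed isozyme and HK2 the inducible one of muscle, fat and many tumours. HK2 (chr2:74834127-74893359, plus strand, GRCh38) was at 2284, 2303 and 2195 normalised counts in untreated Pa-Tu-8902 and at 1357, 1318 and 1265 with dox. A normalised count is the expected count divided by the relative effective size of its library within the comparison. The groups lay well apart, and HK2 fell by 41.9% (log2 fold change -0.78, SE 0.051, edgeR adjusted p = 6.73e-07). In MIA PaCa-2, HK2 was at 1824, 1573 and 1700 normalised counts untreated and 1836, 2010 and 1622 with dox. Here the groups overlapped (log2 fold change 0.10, SE 0.086, edgeR adjusted p = 0.383).

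The dox change of HK2 differed between the lines by 0.88 on the log2 scale (SE 0.10, edgeR interaction, adjusted p = 7.58e-06). It was the only one of the 10 members whose difference passed both thresholds, against 10.4% of the 16544 genes in that test. HK1 (chr10:69269984-69401884, plus strand) was at 2766, 2782 and 2959 normalised counts in untreated Pa-Tu-8902 and 2440, 2658 and 2576 with dox. The groups did not overlap, but the difference missed the threshold (log2 fold change -0.15, SE 0.053, edgeR adjusted p = 0.0372). In MIA PaCa-2, the HK1 groups overlapped, with a log2 fold change of 0.05 (edgeR adjusted p = 0.565).

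HK2 therefore made up a smaller part of the summed HK1 and HK2 TPM in Pa-Tu-8902 with dox. The share was 33.6%, 34.2% and 32.0% in untreated libraries and 26.0%, 23.6% and 23.3% with dox. Among MIA PaCa-2 libraries it was 19.5%, 18.8% and 18.1% untreated and 18.9%, 20.7% and 18.1% with dox. The Pa-Tu-8902 groups did not overlap and the MIA PaCa-2 groups did. With 3 libraries against 3, the exact two-sided permutation test cannot go below p = 0.1, and the Pa-Tu-8902 comparison reached that value (p = 0.12 after Benjamini-Hochberg adjustment over 18 share comparisons). The MIA PaCa-2 comparison gave p = 0.7 by the same exact test.

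GPI (chr19:34359480-34402413, plus strand) converts glucose 6-phosphate to fructose 6-phosphate. It was at 8416, 8776 and 9383 normalised counts in untreated Pa-Tu-8902 and 6119, 7548 and 6646 with dox, and fell by 23.6% (log2 fold change -0.39, SE 0.075, edgeR adjusted p = 0.00138). It did not pass without the third dox library (log2 fold change -0.36, adjusted p = 0.0115 by edgeR). In MIA PaCa-2 the GPI groups overlapped, at 13403, 12298 and 14019 untreated and 11605, 12692 and 11393 with dox (edgeR adjusted p = 0.0993). Without the second untreated library, the lowest of the 3, the MIA PaCa-2 difference passed (log2 fold change -0.21, edgeR adjusted p = 0.00273).

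PFKP (chr10:3066333-3137718, plus strand), the platelet-type phosphofructokinase, catalyses the committed step of the pathway. In Pa-Tu-8902 it was at 8557, 8510 and 9061 normalised counts untreated and at 5087, 5798 and 5472 with dox. It fell by 37.4% there (log2 fold change -0.68, SE 0.057, edgeR adjusted p = 4.25e-06). In the MIA PaCa-2 line, it was at 5061, 4822 and 5412 untreated and 4434, 4356 and 4165 with dox, with no overlap but just short of the threshold (log2 fold change -0.24, SE 0.063, edgeR adjusted p = 0.0103). That near miss passed with DESeq2 (adjusted p = 0.00549) and without the second untreated library (edgeR adjusted p = 0.00014). Of 16 alternatives, 5 passed and 11 did not, and the smallest log2 fold change was -0.11. In TPM the MIA PaCa-2 groups overlapped, at 79.8 to 103 untreated and 80.6 to 88.0 with dox.

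The dox change of PFKP also differed between the lines, by 0.43 on the log2 scale (SE 0.090, edgeR interaction, adjusted p = 0.00155). That difference missed the threshold with limma on log2(TPM + 1) and on log2(TPM + 0.1) (0.45 in both, adjusted p = 0.0139 and 0.0162). HK2 and PFKP were the 2 of 10 members past the adjusted p threshold in this test, against 16.9% of all genes. Among the 3 phosphofructokinase mRNAs, PFKP held 63.9%, 63.1% and 64.8% of the TPM in untreated Pa-Tu-8902 and 50.1%, 52.2% and 53.4% with dox. Among MIA PaCa-2 libraries it held 33.6%, 30.6% and 32.9% untreated and 28.3%, 26.3% and 27.9% with dox. In both lines every dox library was below every untreated one, the smallest p this design allows (exact two-sided permutation test, p = 0.1, adjusted 0.12). PFKL, the liver isozyme, had a log2 fold change of 0.23 with dox in Pa-Tu-8902 (edgeR adjusted p = 0.00199), and PFKM is the muscle isozyme.

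**Figure D3:**
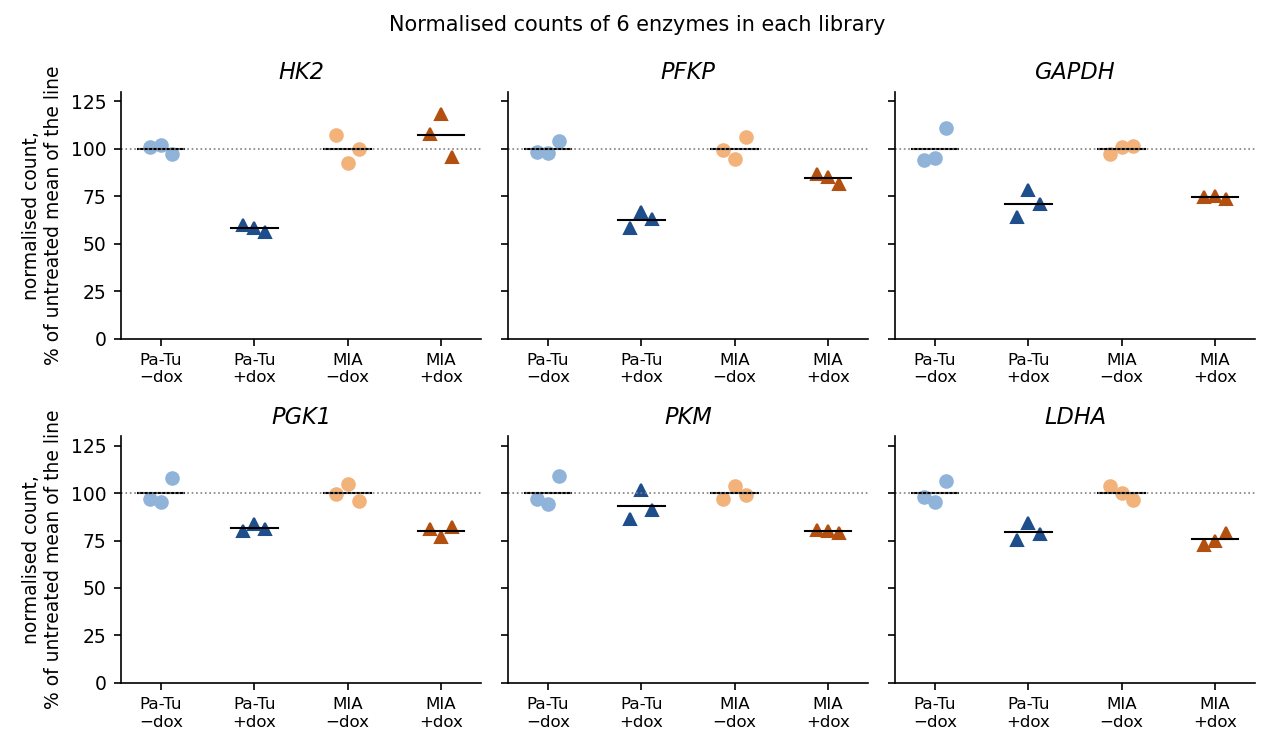
Normalised counts of HK2, PFKP, GAPDH, PGK1, PKM and LDHA in each library, as a percent of the mean of the untreated libraries of the same line. Circles are untreated and triangles dox libraries, and bars are means of 3. HK2 with dox lies between 56.0% and 60.0% in Pa-Tu-8902, whereas in MIA PaCa-2 it lies on both sides of 100%.

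ALDOA (chr16:30064164-30070457, plus strand), the aldolase of muscle and most other cells, was at 28682, 29507 and 35010 normalised counts in untreated Pa-Tu-8902 and 23731, 29920 and 26911 with dox. These groups overlapped (log2 fold change -0.21, SE 0.094, edgeR adjusted p = 0.0848). MIA PaCa-2 also showed overlap, at 42272, 45824 and 45041 untreated and 43364, 43113 and 42471 with dox (log2 fold change -0.05, edgeR adjusted p = 0.564). A gene model on the same strand, AC093512.2, overlaps ALDOA and held up to 8.42% as many counts as ALDOA, so reads of the 2 may have been split between them.

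GAPDH (chr12:6534512-6538374, plus strand) oxidises glyceraldehyde 3-phosphate with NAD+ and is widely used as a reference mRNA. It was at 207123, 208945 and 243833 normalised counts in untreated Pa-Tu-8902 and 140903, 172198 and 156043 with dox, and fell by 28.9% (log2 fold change -0.49, SE 0.086, edgeR adjusted p = 0.000721). In the MIA PaCa-2 line, it was at 163124, 169104 and 170119 untreated and 125400, 125877 and 123406 with dox. In that line it fell by 25.4% (log2 fold change -0.42, SE 0.056, edgeR adjusted p = 0.000139). No dox library of either line reached the lowest untreated one. The 62 annotated GAPDH pseudogenes together held at most 0.026% as many counts as GAPDH.

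PGK1 (chrX:77910739-78129295, plus strand) makes the first ATP of the pathway. It was at 18544, 18219 and 20607 normalised counts in untreated Pa-Tu-8902 and at 15313, 15981 and 15509 with dox (log2 fold change -0.29, SE 0.057, edgeR adjusted p = 0.00141). In MIA PaCa-2 it was at 27542, 28993 and 26541 untreated and 22400, 21273 and 22677 with dox (log2 fold change -0.32, SE 0.062, edgeR adjusted p = 0.00157). PGK1 thus fell in both lines with no overlap, by 18.4% and by 20.1%. In MIA PaCa-2, PGK1 did not pass without the second dox library (log2 fold change -0.31, edgeR adjusted p = 0.0119).

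LDHA (chr11:18394560-18408425, plus strand), the lactate dehydrogenase subunit that favours lactate formation, was at 47917, 46581 and 51985 normalised counts in untreated Pa-Tu-8902 and 36791, 41117 and 38383 with dox. It fell by 20.6% (log2 fold change -0.33, SE 0.062, edgeR adjusted p = 0.00107). In MIA PaCa-2, LDHA was at 37148, 35967 and 34545 untreated and 26082, 26880 and 28387 with dox, and fell by 24.4% (log2 fold change -0.40, SE 0.062, edgeR adjusted p = 0.000379). Neither line showed overlap in normalised counts, but in TPM, which is corrected for length, the third untreated and the second dox library of Pa-Tu-8902 were both at 1144 TPM and the groups of that line overlapped. The Pa-Tu-8902 change missed the threshold with RSEM's effective gene lengths as offsets (-0.22, edgeR adjusted p = 0.0176) and with limma on log2(TPM + 1) and on log2(TPM + 0.1) (-0.15 in both, adjusted p = 0.0483 and 0.0454). Among single Pa-Tu-8902 libraries, the transcript LDHA-203 held between 17.9% and 40.8% of the gene's TPM and LDHA-205 between 1.04% and 40.8%, and LDHA-205 led in the third untreated library.

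Tests of whether the dox change differed between the lines gave 0.07 (SE 0.11) for GAPDH, -0.03 (SE 0.090) for PGK1 and -0.07 (SE 0.094) for LDHA on the log2 scale, with edgeR adjusted p-values of 0.732, 0.864 and 0.632. For GAPDH, PGK1 and LDHA, which fell together, the sequence just before the RefSeq start site is shown (GRCh38.p14, plus strand), without any base that GENCODE release 44 places in an exon. LDHA has a second RefSeq start downstream, whose window (chr11:18396101-18396400) held 0 ACGTG on either strand and is not shown. Capitals mark ACGTG and its reverse complement CACGT, the core of the sites that HIF1 and MYC are known to bind, and CACGTG, the E-box, holds this core on both strands.
GAPDH, chr12:6535142-6535263: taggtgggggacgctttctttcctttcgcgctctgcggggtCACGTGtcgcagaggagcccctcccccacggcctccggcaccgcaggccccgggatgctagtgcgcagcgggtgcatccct
PGK1, chrX:78103998-78104247: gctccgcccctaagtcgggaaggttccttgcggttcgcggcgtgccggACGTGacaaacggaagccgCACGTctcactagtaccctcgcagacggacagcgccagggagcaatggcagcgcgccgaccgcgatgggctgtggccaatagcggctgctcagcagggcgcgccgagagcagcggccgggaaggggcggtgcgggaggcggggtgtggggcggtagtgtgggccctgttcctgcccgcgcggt
LDHA, chr11:18394313-18394559: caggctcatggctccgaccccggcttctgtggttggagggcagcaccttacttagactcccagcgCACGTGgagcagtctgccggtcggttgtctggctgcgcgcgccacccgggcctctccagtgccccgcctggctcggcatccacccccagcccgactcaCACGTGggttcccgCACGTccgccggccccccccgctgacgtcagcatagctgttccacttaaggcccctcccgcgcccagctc
The GAPDH stretch held 1 marked run, an E-box, the PGK1 stretch 2 runs and no E-box, and the LDHA stretch 3 runs, 2 of them E-boxes. In windows from 250 bases before to 50 after a start, ACGTG on either strand was in 10 of the 23 RefSeq promoters of the 10 members, of 7 genes, and in 21.4% of 35116 promoters in all. GCGTG on either strand was in 10 of 23 and 36.5% of all, and CACGTG in 4 of 23 and 7.26% of all. The 7 genes with ACGTG were GAPDH, PGK1 and LDHA and also HK2, GPI, PFKP and ALDOA, of which ALDOA passed with dox in neither line. PKM, which passed in MIA PaCa-2, had no ACGTG in its window, and HK1 and ENO1 had none either. Any part of these sites in the dox changes was not tested. The release 44 models of GAPDH and PGK1 begin further upstream than these RefSeq starts.

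ENO1 (chr1:8861000-8879190, minus strand), the common enolase, makes phosphoenolpyruvate. In Pa-Tu-8902 it was at 76476, 75187 and 86416 normalised counts untreated and 59345, 72308 and 64009 with dox. These groups did not overlap, but edgeR left the difference short of the threshold (log2 fold change -0.28, SE 0.080, adjusted p = 0.0129), while DESeq2 passed it (adjusted p = 0.000899). In the MIA PaCa-2 line, it was at 81137, 84179 and 82418 untreated and 90044, 90441 and 86709 with dox, higher in every dox library without passing (log2 fold change 0.11, SE 0.057, edgeR adjusted p = 0.150). The difference between the lines was 0.39 (SE 0.11, edgeR interaction, adjusted p = 0.0127) and passed with DESeq2 (adjusted p = 0.00213).

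PKM (chr15:72199029-72231819, minus strand) encodes pyruvate kinases M1 and M2. It was at 121900, 118681 and 136878 normalised counts in untreated Pa-Tu-8902 and 108425, 128069 and 114798 with dox, with overlap (log2 fold change -0.10, SE 0.076, edgeR adjusted p = 0.282). In MIA PaCa-2 it was at 108416, 116452 and 111164 untreated and 90153, 89619 and 88415 with dox, and fell by 20.2% (log2 fold change -0.33, SE 0.058, edgeR adjusted p = 0.00104). The difference between the lines was -0.22 (SE 0.11) and did not pass (edgeR interaction, adjusted p = 0.137), so PKM passing in 1 line does not show that the lines differ.

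The M1 and M2 forms arise from 2 mutually exclusive coding exons of 167 bases each on the minus strand of chromosome 15, which were read from GRCh38. They are shown because they set the 2 forms apart, with capitals at the 62 positions that differ, while 105 positions (62.9%) are the same. The levels and shares below are sums of estimated transcript TPM, not reads counted in these exons.
PKM1 exon, chr15:72203022-72203188: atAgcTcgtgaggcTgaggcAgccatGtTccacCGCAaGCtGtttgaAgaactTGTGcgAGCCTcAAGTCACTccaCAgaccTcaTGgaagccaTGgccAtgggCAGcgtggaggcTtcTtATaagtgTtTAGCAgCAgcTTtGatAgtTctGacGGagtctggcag
PKM2 exon, chr15:72202454-72202620: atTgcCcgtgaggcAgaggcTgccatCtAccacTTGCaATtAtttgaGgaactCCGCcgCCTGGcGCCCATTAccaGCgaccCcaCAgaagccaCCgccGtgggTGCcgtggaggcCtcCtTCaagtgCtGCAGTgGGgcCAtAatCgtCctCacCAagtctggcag
Of the 25 PKM transcripts in the isoform tables, 5 carry the PKM1 exon and 3 the PKM2 exon in release 44. PKM1-exon transcripts were at 51.1, 45.6 and 45.6 TPM in untreated Pa-Tu-8902 and 26.6, 42.9 and 31.3 TPM with dox. In MIA PaCa-2 they were at 31.8, 30.9 and 31.5 TPM untreated and 12.6, 12.96 and 11.4 TPM with dox. PKM2-exon transcripts were at 2122 to 2308 TPM and 2060 to 2323 TPM in Pa-Tu-8902 without and with dox, and at 2012 to 2237 TPM and 1722 to 1818 TPM in MIA PaCa-2.

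The PKM1 form was thus the minor one in every library. Its share of the 2 forms was 2.32%, 2.11% and 1.94% in untreated Pa-Tu-8902 and 1.28%, 1.81% and 1.41% with dox. Among MIA PaCa-2 libraries it was 1.44%, 1.51% and 1.39% untreated and 0.687%, 0.715% and 0.657% with dox. In both lines every dox library was below every untreated one, the smallest p that 3 against 3 allows (exact two-sided permutation test, p = 0.1, adjusted 0.12). A further 2 PKM transcripts of the tables are not in release 44 and were left out of the share. Their summed level was 50.8, 50.9 and 56.6 TPM in untreated Pa-Tu-8902, 18.4, 13.7 and 17.6 TPM with dox, and at most 5.22 TPM in MIA PaCa-2. The 15 transcripts with neither exon, at a summed 63.5 to 182 TPM per library, were left out of the share too.

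**Figure D4:**
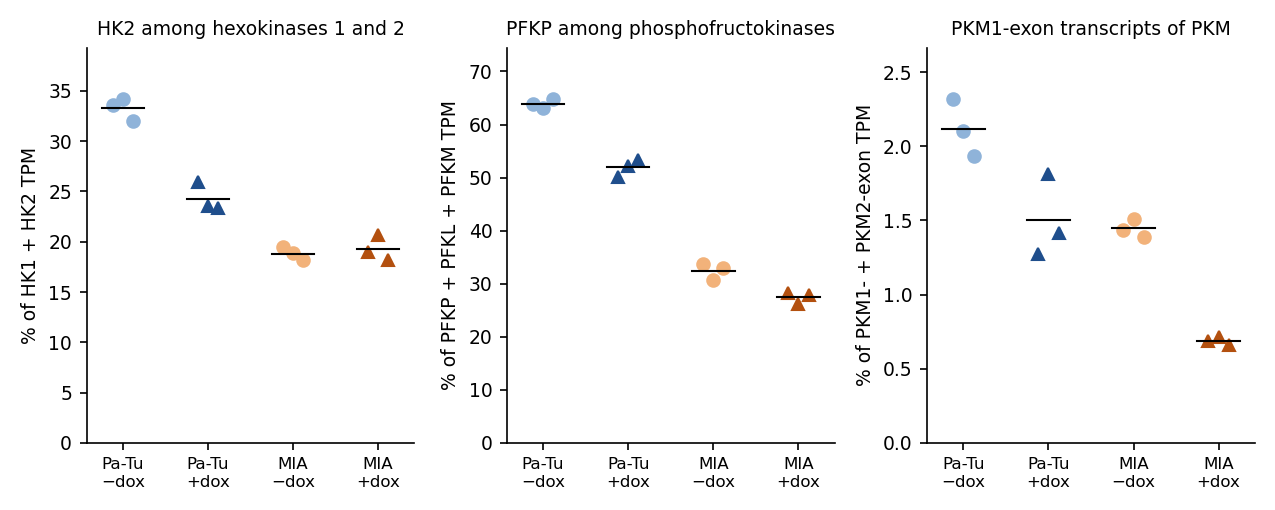
Share of HK2 in HK1 plus HK2 TPM, of PFKP in the TPM of 3 phosphofructokinases, and of PKM1-exon transcripts in PKM1- plus PKM2-exon TPM, in percent. Points are libraries (circles untreated, triangles dox), bars are means of 3, and each axis starts at 0. The groups without and with dox do not overlap in any panel but that of HK2 in MIA PaCa-2, where 18.1% to 20.7% with dox covers 18.1% to 19.5% untreated.

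Among the remaining isozyme pairs, the core member held nearly all of the TPM. ENO1 held 99.1% to 99.3% of ENO1 plus ENO2 in untreated Pa-Tu-8902 and 99.7% with dox, and ALDOA held 97.4% or more of ALDOA plus ALDOC in every library. LDHA held 99.7% or more of LDHA plus LDHB in all 12 libraries. LDHB was listed at 0 TPM in 5 of the 6 Pa-Tu-8902 libraries and at 0.28 TPM in the other.

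In normalised counts, 8 of the 10 members in Pa-Tu-8902 had every dox library below every untreated library, against 29.5% of all genes tested, the exceptions being ALDOA and PKM. In MIA PaCa-2 this held for 5 members, GAPDH, PGK1, PKM, LDHA and PFKP, against 27% of all genes. ENO1 was the 1 member with every dox library above every untreated one. In TPM, HK1 (lowest untreated 32.3, highest dox 32.5) and LDHA overlapped as well in Pa-Tu-8902, and PFKP overlapped in MIA PaCa-2. In Pa-Tu-8902 the third untreated library had the highest value of the untreated libraries in 9 members and the first dox library the lowest of the dox libraries in 9. Mitochondrially encoded genes held 0.900%, 0.934% and 0.714% of counts in the untreated and 1.61%, 0.874% and 1.25% in the dox-treated Pa-Tu-8902 libraries. The library with the lowest share was thus the third untreated one and that with the highest the first dox one. The 6 members that passed in Pa-Tu-8902 also passed without the one or the other of these libraries, and the part of this share in the values was not tested.

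Across the 12 libraries, with each line centred on its own mean, the members' scaled log2 counts correlated most between PGK1 and LDHA (Pearson r = 0.972), GAPDH and LDHA (0.957) and GAPDH and PGK1 (0.954), and least between HK2 and PKM (0.121). These 45 correlations share the libraries, their depth and the dox contrast and are given as a description. Of 11624 other genes with a mean of at least 100 counts, the 5 with a pattern most like the mean of the members were PTDSS1 (r = 0.989), SLC25A10 (0.988), SLC1A5 (0.986), CAPN1 (0.985) and BCAS4 (0.985). They were picked for following a pattern that falls with dox in both lines, so their own falls came with the choice and are a description only. SLC1A5, a glutamine transporter, had a log2 fold change with dox of -0.64 in Pa-Tu-8902 and of -0.38 in the MIA PaCa-2 line. SLC25A10, the mitochondrial dicarboxylate carrier, had -0.58 and -0.21. PTDSS1 had -0.52 and -0.23, CAPN1 -0.87 and -0.43, and BCAS4 -0.62 and -0.34.

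Before dox, the lines differed in 8 of the 10 mRNAs, against 72.9% of all 15608 genes tested, and 5 of the 8 also passed the fold limit, against 58.1% of all genes. The 8 became 5 with effective gene lengths as offsets and also 5 without the third MIA PaCa-2 library. HK1, GPI, ALDOA and PGK1 were higher in MIA PaCa-2 and PFKP was lower. Of the 10 members, 9 had groups that did not overlap, against 81.7% of all genes, so the share of members that differed was near that of genes at large. The median log2 fold change of the members, MIA PaCa-2 over Pa-Tu-8902, was 0.082 against 0.029 over all genes.

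HK1 had the largest of these differences, at 4861, 4349 and 4901 normalised counts in MIA PaCa-2 and 2578, 2588 and 2693 in Pa-Tu-8902 (log2 fold change 0.84, SE 0.071, edgeR adjusted p = 1.17e-07). Here the 2 untreated groups were scaled together, which is why the Pa-Tu-8902 counts are not those given above. GPI followed at 13796, 12340 and 14229 against 7844, 8163 and 8540 (log2 fold change 0.72, SE 0.075, edgeR adjusted p = 1.05e-06). Both genes were lowest in the second untreated MIA PaCa-2 library and still above every Pa-Tu-8902 library in it.

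PGK1 was at 28349, 29092 and 26938 normalised counts in MIA PaCa-2 and 17284, 16946 and 18754 in Pa-Tu-8902 (log2 fold change 0.67, SE 0.072, edgeR adjusted p = 1.35e-06). ALDOA was at 43510, 45982 and 45715 against 26733, 27446 and 31863 (log2 fold change 0.65, SE 0.080, edgeR adjusted p = 5.77e-06). Both had groups that did not overlap, but their fold changes fell short of 1.5-fold without the first Pa-Tu-8902 library (0.56 for PGK1 and 0.51 for ALDOA) or without the second (0.55 and 0.53). PFKP went the other way, at 5209, 4839 and 5493 in MIA PaCa-2 against 7976, 7916 and 8246 in Pa-Tu-8902 (log2 fold change -0.64, SE 0.069, edgeR adjusted p = 1.73e-06). It fell short of the fold limit without the second MIA PaCa-2 library (-0.55) and with effective gene lengths (-0.56), as GPI did with limma at either pseudocount (0.53).

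HK2 (log2 fold change -0.27), GAPDH (-0.26) and LDHA (-0.31) were lower in MIA PaCa-2 by less than 1.5-fold, with edgeR adjusted p-values of 0.00559, 0.00856 and 0.00147. With effective gene lengths as offsets none of these 3 passed (edgeR adjusted p = 0.0206, 0.0373 and 0.0306), and none passed without the third MIA PaCa-2 library (edgeR adjusted p = 0.0240, 0.0238 and 0.0108). HK2 also missed without the second MIA PaCa-2 library (edgeR adjusted p = 0.0268) and with limma (adjusted p = 0.0509 and 0.0554), and GAPDH without the first (edgeR adjusted p = 0.0385) and with a filter of 10 counts in every library (0.0137). ENO1 (0.19, edgeR adjusted p = 0.0255) and PKM (-0.03, edgeR adjusted p = 0.715) did not pass. The hexokinase and phosphofructokinase isozymes were divided differently in the 2 lines. HK2 held 33.3% ± 1.14 of HK1 plus HK2 TPM in untreated Pa-Tu-8902 and 18.8% ± 0.677 of it in MIA PaCa-2, and PFKP held 63.9% ± 0.807 and 32.4% ± 1.57 of the phosphofructokinase TPM (mean ± SD, n = 3, exact two-sided permutation p = 0.1 for both, the smallest possible). PFKL, of the same trio, was at 7930, 8674 and 8641 normalised counts in MIA PaCa-2 and 1647, 1658 and 1683 in Pa-Tu-8902 (log2 fold change 2.34, edgeR adjusted p = 2.87e-12).

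**Figure D5:**
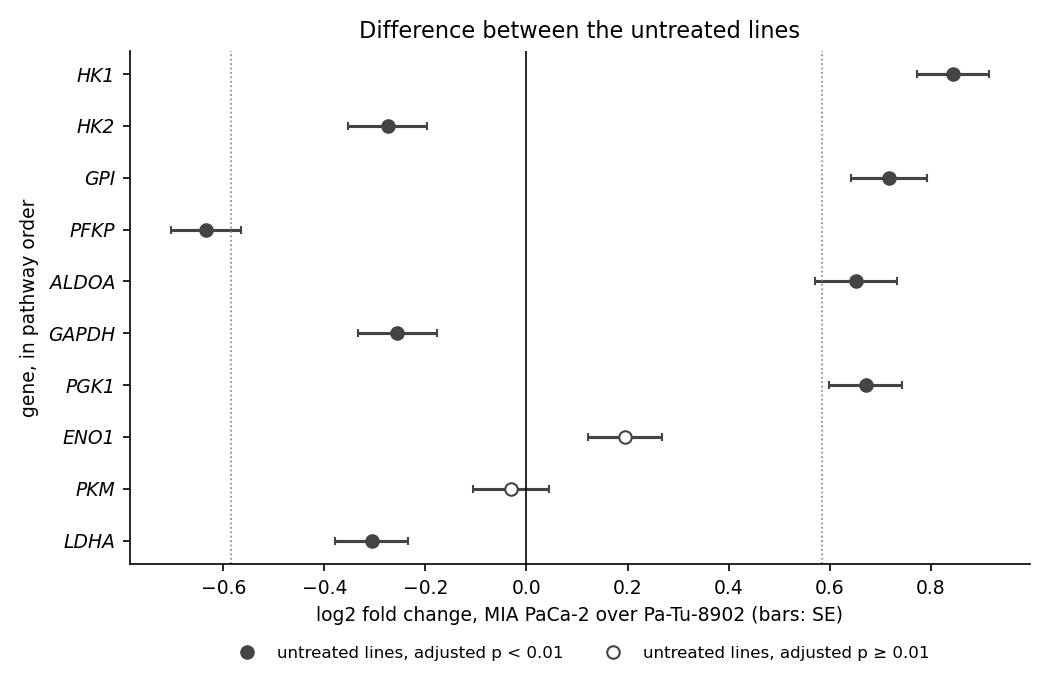
Log2 fold change of each enzyme mRNA between the untreated lines, MIA PaCa-2 over Pa-Tu-8902, with its standard error. Filled points have an adjusted p below 0.01, and dotted lines mark a fold change of 1.5. HK1, GPI, ALDOA and PGK1 lie past the right line, between 0.65 and 0.84, and PFKP past the left one at -0.64.

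The wider pathway was described by 53 further genes, namely other isozymes, glucose and lactate transporters, the regulators of phosphofructokinase and pyruvate dehydrogenase, and enzymes of gluconeogenesis. In Pa-Tu-8902, 40 were tested, of which 7 rose and 10 fell at the adjusted p threshold, or 42.5% of them against 38.1% of all genes, and 6 passed the fold limit too, against 16.3% of all genes. In MIA PaCa-2, 39 were tested, of which 6 rose and 9 fell, or 38.5% against 27.2% of all genes, and 8 were called, against 12% of all genes. The 17 that passed in Pa-Tu-8902 became 11 without the third dox library, and the 15 in MIA PaCa-2 became 9 without the third dox library of that line or with effective gene lengths and 8 with limma at either pseudocount. The median log2 fold change of the list was -0.03 with dox in Pa-Tu-8902 and -0.01 with dox in MIA PaCa-2. The 2 remaining single steps of the pathway went unlike each other in Pa-Tu-8902, where TPI1, the triose phosphate isomerase, fell by 0.42 on the log2 scale (SE 0.080, edgeR adjusted p = 0.00135) and PGAM1, the phosphoglycerate mutase, was at 0.01 (edgeR adjusted p = 0.866). Without the third dox library, TPI1 missed the threshold (-0.37, edgeR adjusted p = 0.0117). In MIA PaCa-2, TPI1 was at -0.22 and PGAM1 at 0.12, and neither passed (edgeR adjusted p = 0.0282 and 0.128).

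In Pa-Tu-8902, ENO2, the neuronal enolase, was at 836, 907 and 784 normalised counts untreated and 252, 226 and 219 with dox (log2 fold change -1.86, SE 0.089, edgeR adjusted p = 8.61e-08). SLC16A3, the lactate exporter MCT4, was at 16863, 16765 and 18179 untreated and 10171, 12516 and 11401 with dox (log2 fold change -0.60, edgeR adjusted p = 5.79e-05). The pyruvate dehydrogenase kinases PDK4 (log2 fold change 1.43) and PDK2 (0.62), which restrain entry of pyruvate into the citric acid cycle, rose (edgeR adjusted p = 1.94e-05 and 7.61e-05). PDK4 was low, at 50 to 59 normalised counts untreated and 140 to 164 with dox. It passed in all 16 alternatives, with a log2 fold change of 0.80 in the lowest. ENO3 (-0.79) and FBP1 (-0.63) completed the 6 called genes, at under 200 normalised counts and with adjusted p-values of 0.00511 and 0.00923. When 1 of the 6 libraries was left out in turn, the muscle enolase ENO3 missed the threshold in 5 of 6 fits and the gluconeogenic FBP1 in all 6.

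In MIA PaCa-2, SLC16A1, the lactate carrier MCT1, was at 4905, 4470 and 4408 normalised counts untreated and 6744, 7182 and 6919 with dox (log2 fold change 0.60, edgeR adjusted p = 2.59e-05). PFKFB2, a kinase and phosphatase that sets the level of the phosphofructokinase activator fructose 2,6-bisphosphate, rose by 0.98 (edgeR adjusted p = 4.16e-05). ALDOC fell by 1.32, from 231 to 287 counts untreated to 94 to 128 with dox (edgeR adjusted p = 3.58e-05). Of the 2 subunits of the mitochondrial pyruvate carrier, MPC2 rose by 0.59 and MPC1 fell by 0.59 (edgeR adjusted p = 0.00021 and 0.00221), and MPC1 missed the threshold without the second dox library (-0.56, edgeR adjusted p = 0.0109). HKDC1 (-2.04), LDHD (-1.07) and LDHB (1.40) were called at 72 normalised counts or fewer, and LDHB rested on 10 to 15 counts untreated and 24 to 40 with dox. LDHD lost its call in 6 of 16 alternatives, among them the fits without the first untreated, the first dox or the third dox library, and LDHB lost its call in 7 of 16, among them those without the third untreated, the second dox or the third dox library.

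Between the untreated lines, 33 of the 41 listed genes tested differed, 15 higher and 18 lower in MIA PaCa-2, or 80.5% of the list against 72.9% of all genes. The glucose transporter GLUT1, SLC2A1, was at 17731, 18222 and 20027 normalised counts in Pa-Tu-8902 and 2087, 1867 and 2105 in MIA PaCa-2 (log2 fold change -3.21, edgeR adjusted p = 6.64e-13). SLC16A3 was lower in MIA PaCa-2 too (log2 fold change -3.66, edgeR adjusted p = 6.74e-14). The gaps of SLC2A1 and SLC16A3 were far wider than any among the 10 core enzymes, whose log2 fold changes lay between -0.64 and 0.84. Also lower in MIA PaCa-2 were PDP1 (-4.75), SLC2A8 (-3.84), PFKFB2 (-2.19) and DLAT (-1.72), while PCK2 (2.14), TPI1 (0.62) and PGAM1 (0.48) were higher, as PFKL was. SLC2A3, another glucose transporter, went the other way from SLC2A1 (log2 fold change 1.63, edgeR adjusted p = 1.94e-08).

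The 7 regulators of the pathway examined were HIF1A, EPAS1, ARNT, MYC, MLXIP, MLXIPL and TXNIP. With dox, 4 of the 7 passed in Pa-Tu-8902, against 38.1% of all genes, and 3 in MIA PaCa-2, against 27.2%. HIF1A rose with dox in Pa-Tu-8902 from 4582, 4594 and 4657 normalised counts to 7154, 6716 and 7351 (log2 fold change 0.62, edgeR adjusted p = 2.68e-06). EPAS1, which encodes HIF2A, rose by 0.59 and ARNT, which encodes their common partner, fell by 0.90 (edgeR adjusted p = 3.69e-06 and 5.61e-06). In MIA PaCa-2, MYC rose from 5393, 5532 and 5274 to 8129, 8294 and 8007 (log2 fold change 0.59, edgeR adjusted p = 1.15e-05), and ARNT fell by 0.55 (edgeR adjusted p = 0.000714). TXNIP rose by 0.27 in Pa-Tu-8902 and MLXIP by 0.44 in MIA PaCa-2 (edgeR adjusted p = 0.00893 and 0.000434). With limma on log2(TPM + 1), ARNT missed the threshold in both lines (log2 fold change -0.56 in Pa-Tu-8902 and -0.48 in the other line, adjusted p = 0.0117 and 0.0481), and it did so with log2(TPM + 0.1) as well. These are mRNA levels, and no protein or factor activity was measured in these files. In bulk samples, fewer cells with a transcript and less of it per cell cannot be told apart.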

How the data were processed

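RNA-seq of 12 libraries of 2 established PDA lines was taken from the deposited tables, grouped by the sample titles, and every library was used. Per the labels and methods, poly(A) RNA was made into stranded libraries and sequenced as paired ends, and the authors trimmed reads with Trimmomatic 0.39 and ran RSEM 1.3.1 with STAR 2.5.2a on GRCh38 with GENCODE release 29. The authors deposited expected counts per gene (not normalised), TPM and FPKM, and the isoform tables hold the same units. RSEM's deposited effective lengths are in bases. Of the expected counts above 0, 15.3% were not whole. The strand setting of the counting is not given in the sources used here, so reads of antisense partners may be mixed. Gene positions and exons came from GENCODE release 44, matched on Ensembl identifiers, and start sites from RefSeq (GRCh38.p14).

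The counts were rounded, scaled by TMM and tested with edgeR 4.0.16 (glmQLFit, glmQLFTest, R 4.3.3), each comparison on its own groups and the difference of dox changes on all 12 libraries, over genes that reached 10 counts in 3 or more libraries. A gene passed at a Benjamini-Hochberg adjusted p below 0.01 over all genes tested, and was called if the fold was also at least 1.5. The SE is the absolute log2 fold change over the square root of F. Shares were computed from TPM and compared by exact two-sided permutation tests. Alternatives were DESeq2 1.42.0, limma 3.58.1 on log2(TPM + 1) and log2(TPM + 0.1), other scaling and filters, effective lengths as offsets, a replicate block, added pseudogene counts, 1 fit of all libraries, each library left out, and shares from counts or FPKM. The fits were tested on simulated data.

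The 10 members and the gene lists were chosen with earlier results of these data known. Named besides the members are TPI1, PGAM1, up to 8 called genes of the wider list per comparison by smallest p, the regulators, and the 5 genes most like the members' mean pattern. PFKL with dox, SLC2A3 between the untreated lines, SLC2A1 and PGM2 in the difference of dox changes and the regulators given with values were picked after their values were seen. A marker gene among those examined is not reported here.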

Additional observations from a re-analysis of the deposited data

Results flagged for a closer look

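The dox change differed between the lines for 2 of the 10 core enzymes at an adjusted p below 0.01 in edgeR's interaction test, a share near the 16.9% of all 16544 genes. The difference, MIA PaCa-2 minus Pa-Tu-8902 on the log2 scale, was 0.88 for HK2 and 0.43 for PFKP, since HK2 was at -0.78 (Pa-Tu-8902) and 0.10 (MIA PaCa-2) and PFKP at -0.68 and -0.24. With limma at either pseudocount HK2 passed and PFKP did not.

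In the wider pathway 10 of the 42 genes tested passed the same test, or 23.8%. The difference was positive for 6 of them, ENO2 at 1.497, PFKFB2 at 0.99, SLC16A3 at 0.65, SLC16A1 at 0.61, SLC2A1 at 0.46 and PGM2 at 0.42. It was negative for 4, HKDC1 at -2.05, ALDOC at -1.09, PGM1 at -0.65 and MINPP1 at -0.62. When 1 of the 12 libraries was left out in turn, PGM2 missed the threshold in 10 fits, SLC2A1 in 2 (without the first dox library of the one or the other line) and HKDC1 in 2 (without the first or the third MIA PaCa-2 dox library). With limma on log2(TPM + 0.1), ALDOC, MINPP1, SLC2A1 and PGM2 missed it.

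Of the regulators, HIF1A differed by -0.57, with a rise in Pa-Tu-8902, and MYC by 0.45, with a rise in MIA PaCa-2, and HIF1A missed the threshold with limma at either pseudocount (adjusted p = 0.0349 and 0.0390). Groups of 3 libraries were too small for a test of single outlying samples.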

How the results depend on the processing

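For the 10 members and 4 comparisons, 690 alternative values were computed, of which 649 kept their direction and their side of the threshold, 20 lost and 15 gained a pass, and 6 changed sign. The 2 members called with dox in Pa-Tu-8902 became 1 (HK2) with limma at either pseudocount, and 6 with no fold limit, where MIA PaCa-2 gave 4, the untreated lines 8 and the interaction 2 (1, HK2, with limma at either pseudocount). Leaving out 1 library gave 2 to 2 called members for Pa-Tu-8902, 0 to 0 for MIA PaCa-2, 3 to 5 between the untreated lines (3 without untreated Pa-Tu-8902 replicate 1 or 2) and 1 to 1 in the interaction. With no fold limit the wider list gave 17 (Pa-Tu-8902) and 15 (MIA PaCa-2) genes, and it gave 4 in MIA PaCa-2 with effective lengths as offsets and 5 with limma at either pseudocount, and 3 to 5 (Pa-Tu-8902, 3 without untreated replicate 1 or dox replicate 1) and 5 to 8 (MIA PaCa-2, 5 without untreated or dox replicate 3) without 1 library. The cause of these shifts was not tested.

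The sign changed for ALDOA in MIA PaCa-2 at 0.0017 with limma at either pseudocount, PKM between the untreated lines at 0.012 and HIF1A in MIA PaCa-2 at -0.0040 with effective lengths as offsets, and for results that ranged across 0 when 1 library was left out. The latter ran from -0.0029 to 0.077 for HK1 in MIA PaCa-2, from -0.021 to 0.13 for the GAPDH interaction, from -0.019 to 0.079 for PGAM1 in Pa-Tu-8902, from -0.049 to 0.15 for HIF1A and -0.22 to 0.37 for EPAS1 in MIA PaCa-2, and from -0.28 to 0.99 percentage points for the HK2 share in MIA PaCa-2. No scaling moved the median log2 fold change of all genes by over 0.1.

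With a replicate block, the called members were 2 for Pa-Tu-8902, 0 for MIA PaCa-2, 5 between the lines and 1 in the interaction, as without it, and HK2 and GAPDH between the lines lost their pass (adjusted p = 0.0112 and 0.0371). The deviations of same-numbered libraries from their group means correlated at -0.09 to 0.14 within the lines and at -0.15 to -0.02 between the untreated lines. With 3 libraries per group, such values cannot decide whether the replicate numbers pair the libraries. Over all genes, limma on log2(TPM + 1) called 894 genes in MIA PaCa-2 against 1751, and 1626 in Pa-Tu-8902 against 2443. At these depths the least abundant member, HK2, had 1196 counts or more in each library, while LDHB, HKDC1 and LDHD rested on under 100.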
